A study of Mus musculus with 10 samples.

Results

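The transcription factor genes *Glis3*, *Maf*, *Pbx3*, *Bcl11b*, *Zbtb16* and *Dach2* were followed across neuron subtypes of the thalamic paraventricular nucleus (PVT), a midline nucleus tied to arousal, stress and motivated behaviour. They are 6 of 33502 gene symbols in the deposited table and were chosen by their UMI levels, which differed between PVT subtypes or regions in an earlier look at these data. Differences between those groups are therefore a description here and carry no test. Transcription factors bind DNA and set which other genes a cell reads, and in the brain combinations of them mark neuron types and hold their identity after development. GLIS3 and BCL11B (CTIP2) are zinc finger proteins, known in the pancreas and thyroid and in deep-layer cortical and striatal neurons respectively. MAF is a basic leucine zipper protein, PBX3 a TALE homeodomain protein that pairs with HOX and MEIS proteins, ZBTB16 (PLZF) a BTB zinc finger repressor, and DACH2 a nuclear cofactor that works with the EYA proteins.

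Nuclei came from tissue punches along the whole PVT of C57BL/6J mice aged 12 weeks, with no genetic change or treatment. The methods state that tissue of 4 mice was pooled per sample, for a total of 4 replicates. They do not say how the 6 female libraries were pooled. There are 10 libraries, 4 male and 6 female, each taken as 1 replicate. Whole libraries held 875 to 7213 nuclei and 5119927 to 55956635 UMIs (unique molecular identifiers, each a captured RNA molecule), and PVT neurons had medians of 12880.5 to 23659 UMIs in male and 6069 to 9753 UMIs in female libraries. The kinds of library also differ in the genes counted: 1555 genes have 50 or more UMIs in male and 0 in female nuclei, and 509 the reverse. Sex and library series therefore cannot be told apart. In all, 46 barcode sequences occur in more than 1 library.

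Of 20503 nuclei, 10410 carry a neuron cluster name from the authors and 10307 of these have more than 1000 genes. Each was put with the regional marker that led it (*C1ql3* for the PVT, *Adarb2*, *Gad2* or *Nwd2*), and *C1ql3*-led neurons then with the subtype marker that led it. These subtype markers were *Egflam*, *Col12a1*, *Cadps2*, *Npsr1* and *Drd3*, which mark the study's PVT1 to PVT5 in that order. A marker led where it had at least 1 UMI and its scaled level was at least 2 times that of the next marker. This gave 5264 *C1ql3*-led neurons, of which 598 fell in the *Egflam* group, 874 in the *Col12a1* group, 822 in the *Cadps2* group, 201 in the *Npsr1* group and 752 in the *Drd3* group, while 2017 had no leading subtype marker. Levels are UMIs of a gene per 1000000 UMIs (CPM) summed over a group in a library, with sums of fewer than 10 nuclei left out. This removed 2 male libraries from the *Npsr1* group, which had 5 and 7 nuclei there.

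Markers outside the split bore out some of these groups and not others. For the PVT groups a single second marker per subtype is given, that of the alternative split. Further listed markers of PVT1 and PVT3 are not reported here, so the verdict covers only the markers named. *Insrr* was at 37.6 CPM in the *Cadps2* group and 0.32 to 11.7 CPM in the other PVT groups, and *Hcrtr1* at 17.3 CPM in the *Npsr1* group and 2.48 to 7.38 CPM in the others. *Pde3a* was highest in the *Col12a1* group, at 36.7 CPM. For PVT1 and PVT5 the second markers did not single out the group: *Esr1* was at 20.5 CPM in the *Egflam* group and 31.2 CPM in the *Col12a1* group, and *Slc22a3* at 17.7 CPM in the *Drd3* group against 16.5 CPM in the *Egflam* group. Groups are therefore called by their marker genes. Neurons led by *Nwd2* carried *Tac2* at 874 CPM, *Pou4f1* at 74.4 CPM and *Gng8* at 90.4 CPM and are called habenula-like. Neurons led by *Gad2* were mixed (shown with their parts), and the *Adarb2* group, defined by a single marker, is left unnamed. The authors' cell names fitted their markers: Cx3cr1 was at 2432 CPM in microglia, Mog at 1207 CPM in oligodendrocytes, Pdgfra at 1162 CPM in oligodendrocyte precursor cells (OPCs), Aqp4 at 667 CPM in astrocytes, Tmem212 at 2112 CPM in ependymal cells, Flt1 at 5018 CPM in endothelial cells and Dcn at 1035 CPM in fibroblasts, each higher there than in any other group.

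*Glis3* lies on the minus strand of chromosome 19 (GRCm38, 28258851 to 28680077), a gene of 421 kb. *Bcl11b* lies on the minus strand of chromosome 12 (107910403 to 108003602), *Pbx3* on the minus strand of chromosome 2 (34171457 to 34373142) and *Maf* on the minus strand of chromosome 8 (115682942 to 115707794). *Zbtb16* lies on the minus strand of chromosome 9 (48654297 to 48836222) and *Dach2* on the plus strand of chromosome X (113297510 to 113836386). *Glis3* overlaps *4933413C19Rik* on its own strand and *D930032P07Rik* on the other. *Pbx3*, *Maf* and *Dach2* each overlap 1 gene on the opposite strand (*C79798*, *Gm15655* and *Gm24831*). How UMIs in the shared stretches were assigned was not checked.

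RefSeq promoter windows, from 250 bases before to 50 bases after a gene start, were at hand for 3 of the 6 genes. They are shown because *Glis3* and *Bcl11b* were high in the same neurons and *Dach2* in others. Capitals mark the GC box (GGGCGG) and the TATA box (TATAAA), each searched on both strands, and all 3 are printed 5′ to 3′ on the strand of the gene (GRCm38.p6).
*Glis3*, chr19:28680028-28680327, minus strand: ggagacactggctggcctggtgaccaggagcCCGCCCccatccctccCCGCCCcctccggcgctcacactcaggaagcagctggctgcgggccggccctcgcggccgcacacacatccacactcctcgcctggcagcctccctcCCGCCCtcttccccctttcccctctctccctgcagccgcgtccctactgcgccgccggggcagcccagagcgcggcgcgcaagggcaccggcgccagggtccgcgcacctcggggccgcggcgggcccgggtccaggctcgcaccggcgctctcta
*Bcl11b*, chr12:108003365-108003664, minus strand: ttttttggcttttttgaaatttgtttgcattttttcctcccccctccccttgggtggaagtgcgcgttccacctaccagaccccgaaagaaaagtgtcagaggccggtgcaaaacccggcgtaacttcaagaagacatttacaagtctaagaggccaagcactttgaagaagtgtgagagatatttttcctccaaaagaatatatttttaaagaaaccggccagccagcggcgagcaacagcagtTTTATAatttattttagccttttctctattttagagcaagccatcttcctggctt
*Dach2*, chrX:113297260-113297559, plus strand: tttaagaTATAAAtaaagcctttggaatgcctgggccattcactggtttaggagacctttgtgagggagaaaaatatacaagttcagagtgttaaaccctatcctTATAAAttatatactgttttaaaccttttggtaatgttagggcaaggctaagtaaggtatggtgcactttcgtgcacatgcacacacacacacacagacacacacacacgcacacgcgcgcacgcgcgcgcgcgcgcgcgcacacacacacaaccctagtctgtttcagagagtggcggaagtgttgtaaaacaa
The windows share little. The *Glis3* window is 76.3% G and C and holds 3 GC boxes and 0 TATA boxes, the *Bcl11b* window is 43% G and C with 0 GC boxes and 1 TATA match, and the *Dach2* window is 45.3% G and C with 0 and 2. A second *Dach2* window (113298006 to 113298305) is 66.3% G and C, with 1 GC box. Of 32851 promoters of this length, 35.7% hold a GC box and 13.6% a TATA box, and the median content is 52.7% G and C. A MAF core site (TGCTGA), present in 19.5% of promoters, and a PBX octamer (TGATTGAT), present in 0.746%, each had 0 matches in all 4 windows. The CCAAT box, present in 37.4%, had 1 match, in the second *Dach2* window. No motif contains another, both strands were read for each, and a match is not a bound site.

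*Glis3*, *Pbx3*, *Bcl11b* and *Maf* were high in the *Cadps2* group, and 3 of the 4, all but *Maf*, were next highest in the *Npsr1* group. The *Egflam* and *Col12a1* groups were lowest for *Glis3*, *Pbx3* and *Bcl11b*, with the *Drd3* group between. *Zbtb16* was low in all PVT groups, and *Dach2* was highest in the *Col12a1* group.

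*Glis3* was at 862 ± 117 CPM (SD, n = 10) in the *Cadps2* group, with a lowest library of 719 CPM, a median of 843 CPM and a highest of 1062 CPM. In the *Npsr1* group it was at 333 ± 160.1 CPM (n = 8), from 121 to 627 CPM. The *Drd3* group was at 167 ± 79.8 CPM (n = 10), the *Egflam* group at 30.1 ± 16.6 CPM and the *Col12a1* group at 9.68 ± 9.40 CPM. No library of the other 4 groups reached the lowest *Cadps2* library, and the mean of the *Cadps2* group was 89.0 times that of the *Col12a1* group and 2.64 times that of the *Npsr1* group in the libraries that had both. After each nucleus was thinned to 2000 UMIs, which 4 *Cadps2*-led nuclei did not reach, 57.2% ± 4.49 (n = 10) of the *Cadps2* group had a *Glis3* UMI, against 2.07% ± 3.05 of the *Col12a1* group. Without thinning these shares were 75.0% and 5.69%. Oligodendrocytes had 2.32% ± 1.87 (n = 10) after thinning, which left out 847 of their 2462 nuclei, so the *Col12a1* share was no higher than theirs. Whether free RNA gave either share was not tested.

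*Pbx3* followed the same order. It was at 536 ± 73.8 CPM (n = 10) in the *Cadps2* group, with libraries from 404 CPM through a median of 554 CPM to 634 CPM. The *Npsr1* group was at 201 ± 105 CPM (n = 8), and its libraries spread from 38.1 to 357 CPM. The *Drd3* group was at 101 ± 39.0 CPM, the *Egflam* group at 17.1 ± 11.1 CPM and the *Col12a1* group at 13.9 ± 6.65 CPM. The *Cadps2* libraries again lay above every library of the other 4 groups.

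*Bcl11b* did not separate the *Cadps2* from the *Npsr1* group. It was at 189 ± 23.9 CPM (n = 10), from 159 through a median of 189 to 223 CPM, in the *Cadps2* group and at 166 ± 38.4 CPM (n = 8), from 114 to 227 CPM, in the *Npsr1* group. The ranges overlap, and the *Cadps2* group was the higher in 6 of 8 libraries. The *Npsr1* group led where no lead over the next marker was asked for, and after thinning. The *Drd3* group was at 78.6 ± 23.7 CPM, and the *Egflam* and *Col12a1* groups were at 17.5 ± 9.15 and 13.2 ± 7.58 CPM. All *Cadps2* libraries were above all libraries of these 3 groups.

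*Maf* was the most narrowly placed of the 4. The *Cadps2* group was at 52.8 ± 8.95 CPM (n = 10), with a lowest library of 40.2, a median of 51.9 and a highest of 65.2 CPM. The *Npsr1* group was at 9.06 ± 11.2 CPM (n = 8), on 15 UMIs in all and with 0 UMIs in 3 libraries, and the *Drd3* group was at 12.0 ± 5.59 CPM. The *Egflam* group was at 5.41 ± 3.88 CPM and the *Col12a1* group at 3.58 ± 3.68 CPM. The highest library of the other 4 marker groups was 25.9 CPM, below the lowest *Cadps2* library.

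*Dach2* ran the other way. The *Col12a1* group was at 22.9 ± 11.3 CPM (n = 10), from 4.98 through a median of 22.3 to 38.5 CPM, on 311 UMIs. The *Egflam* group was at 12.0 ± 10.6 CPM, from 0 to 35.6 CPM, and the *Col12a1* group was higher in only 6 of 10 libraries, so these neighbours do not differ beyond their spread. The *Cadps2*, *Npsr1* and *Drd3* groups were at 5.21 ± 3.66, 4.19 ± 5.78 and 6.32 ± 4.59 CPM. The *Col12a1* group was above the *Cadps2* group in 9 of 10 libraries and above the *Npsr1* group in 8 of 8.

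*Zbtb16* was scarce in PVT neurons. The *Egflam* group, the highest, was at 9.39 ± 7.64 CPM (n = 10), from 1.35 through a median of 8.09 to 25.0 CPM, on 67 UMIs. The *Col12a1*, *Cadps2* and *Drd3* groups were at 3.69 ± 2.17, 3.33 ± 3.16 and 1.97 ± 2.12 CPM, and the *Npsr1* group at 0.93 ± 1.78 CPM on 7 UMIs. The ranges overlap, the *Egflam* group was above the *Cadps2* group in 7 of 10 libraries, and other choices of the marker moved the lead to the *Cadps2* or *Drd3* group.

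**Figure D1:**
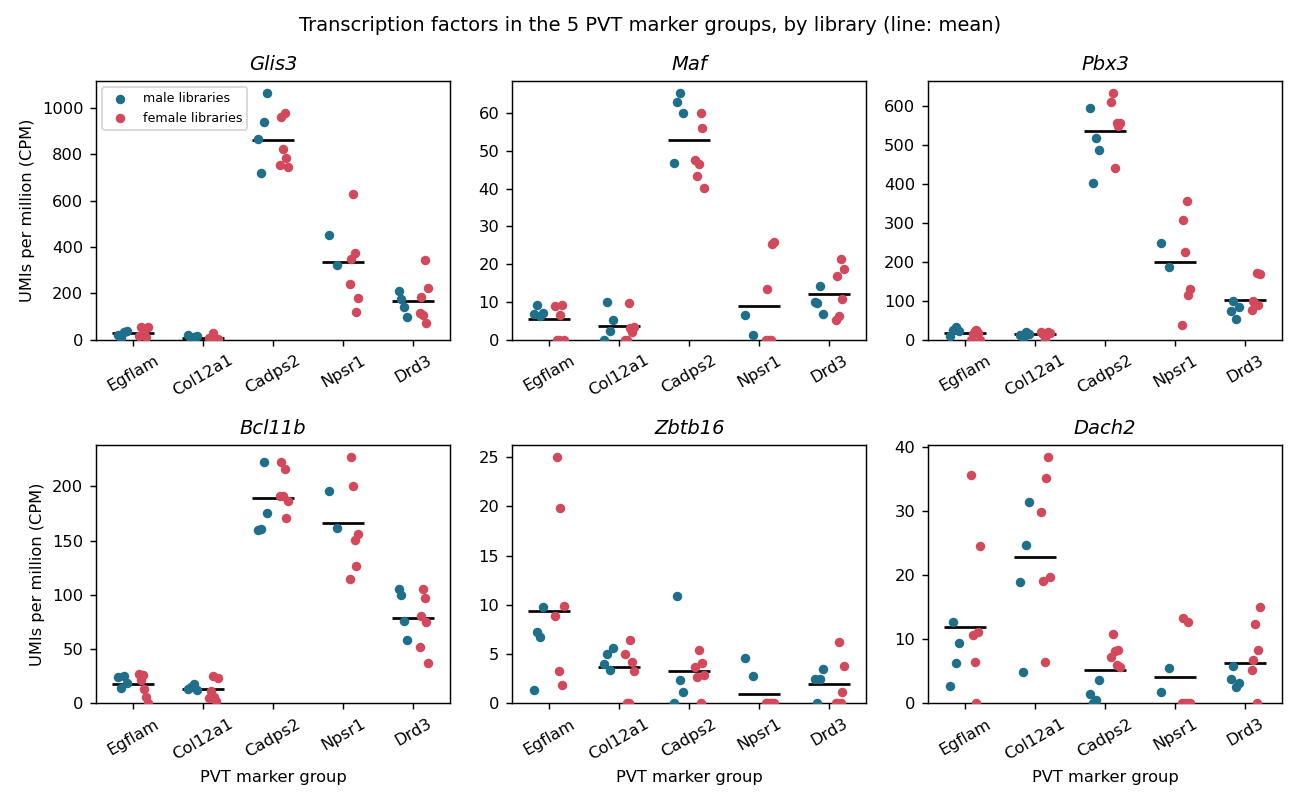
Level of each gene in CPM (vertical axis, from 0, scaled per gene) in the 5 PVT marker groups (horizontal axis). Each point is a library, male or female, and the line is the mean. The *Cadps2* libraries of *Glis3*, *Pbx3* and *Maf* lie above every other library, while for *Bcl11b* they overlap the *Npsr1* group and for *Zbtb16* and *Dach2* the groups overlap.

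The 2017 *C1ql3*-led neurons without a leading subtype marker were intermediate for the 4 factors of the *Cadps2* group. *Glis3* was at 187 ± 54.6 CPM (n = 10), *Pbx3* at 126 ± 36.1 CPM, *Bcl11b* at 68.3 ± 12.0 CPM and *Maf* between 9.58 and 31.4 CPM. *Dach2* was at 9.48 ± 2.56 CPM and *Zbtb16* at 3.50 ± 2.59 CPM.

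The authors' own neuron clusters, which were made from the most variable genes of these nuclei, placed the genes in a like way. The subtype markers also stem from the authors' clustering of these data, so this likeness is not independent support. Neuron cluster 4, which holds 59.12% of the *Cadps2* group, had *Glis3* at 1215 ± 130 CPM (n = 10), *Pbx3* at 584 ± 81.5 CPM, *Bcl11b* at 224 ± 28.9 CPM and *Maf* at 66.7 ± 10.5 CPM. Cluster 2, which holds 61.19% of the *Npsr1* group, had *Glis3* at 155 ± 37.0 CPM, *Pbx3* at 163 ± 44.2 CPM and *Bcl11b* at 127 ± 22.4 CPM. It also holds 26.52% of the *Cadps2* group. *Npsr1* itself was at 80.1 ± 31.9 CPM in cluster 2 and 122 ± 51.2 CPM in cluster 4, so cluster 2 is not a counterpart of the *Npsr1* group alone. Cluster 1, which holds 87.19% of the *Col12a1* and 78.26% of the *Egflam* group, had *Glis3* at 16.5 ± 5.99 CPM and the highest *Dach2* of the 8 neuron clusters, from 10.6 to 25.3 CPM. The *Drd3* group had no cluster of its own, with 50% of its nuclei in cluster 1 and 39.63% in cluster 2. Cluster 6, which holds 77.09% of the habenula-like neurons, had *Pbx3* at 578 ± 118 CPM but *Glis3* at 3.78 ± 4.97 CPM. *Zbtb16* was highest in cluster 5, at 20.6 ± 9.84 CPM (n = 9).

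In a fit over all genes (edgeR, quasi-likelihood, library as block), each group was compared with the average of the remaining 4. These folds describe the contrast that chose the genes and are given without a test. In the *Cadps2* group the log2 fold was 3.71 (SE 0.09) for *Glis3*, 3.33 (SE 0.09) for *Pbx3*, 3.12 (SE 0.15) for *Maf* and 2.10 (SE 0.08) for *Bcl11b*. In the *Npsr1* group it was 2.04 (SE 0.15) for *Glis3*, 1.66 (SE 0.15) for *Pbx3*, 1.94 (SE 0.13) for *Bcl11b* and -0.81 (SE 0.41) for *Maf*. *Dach2* and *Zbtb16* were under the filter on low counts. Without that filter *Dach2* had a log2 fold of 2.49 (SE 0.17) in the *Col12a1* group, and *Zbtb16* of 1.36 (SE 0.28) in the *Egflam* group.

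The 4 factors were higher step by step with the amount of *Cadps2* in the nucleus. *Cadps2* marks the group in which they were highest, so these steps are a description without a test. Among *C1ql3*-led neurons with 0 UMIs of *Cadps2* (3511 nuclei) *Glis3* was at 31.5 ± 10.4 CPM (n = 10), and it was at 214 ± 55.5 CPM below 5, 988 ± 124 CPM from 5 to 15, and 1569 ± 217 CPM (n = 7) at 15 or more *Cadps2* UMIs per 10000. The *Glis3* ranges of neighbouring steps did not overlap. Over the same steps *Pbx3* went from 40.5 to 199.6, 504 and 734 CPM, *Bcl11b* from 37.0 to 107, 192 and 251 CPM, and *Maf* from 7.22 to 17.5, 45.4 and 87.3 CPM. *Dach2* was at 12.9 ± 2.77 CPM where *Cadps2* was absent and at 5.09 to 6.51 CPM in the other steps. The library ranges of *Maf* overlap between all neighbouring steps, those of *Bcl11b* from the step below 5 upward, and those of *Pbx3* between the last 2 steps.

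Mean *Dach2* was instead higher with more *Col12a1*, the marker of the group where it was highest, though library ranges of all neighbouring steps overlap. It was at 7.58 ± 2.61 CPM (n = 10) with 0 UMIs of *Col12a1*, 11.2 ± 8.69 CPM below 2 per 10000, 26.1 ± 10.9 CPM (n = 9) from 2 to 5 and 37.2 ± 31.3 CPM (n = 4, on 116 nuclei) at 5 or more. Over these steps *Glis3* was at 317, 62.0, 11.8 and 3.14 CPM. *Zbtb16* showed no such steps with *Egflam*: it was at 2.70 CPM with 0 UMIs and at 10.5 ± 12.9 CPM (n = 6) and 4.41 ± 6.65 CPM (n = 8) in the next 2 steps, and from 0 to 35.6 CPM (n = 6) in the highest.

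**Figure D2:**
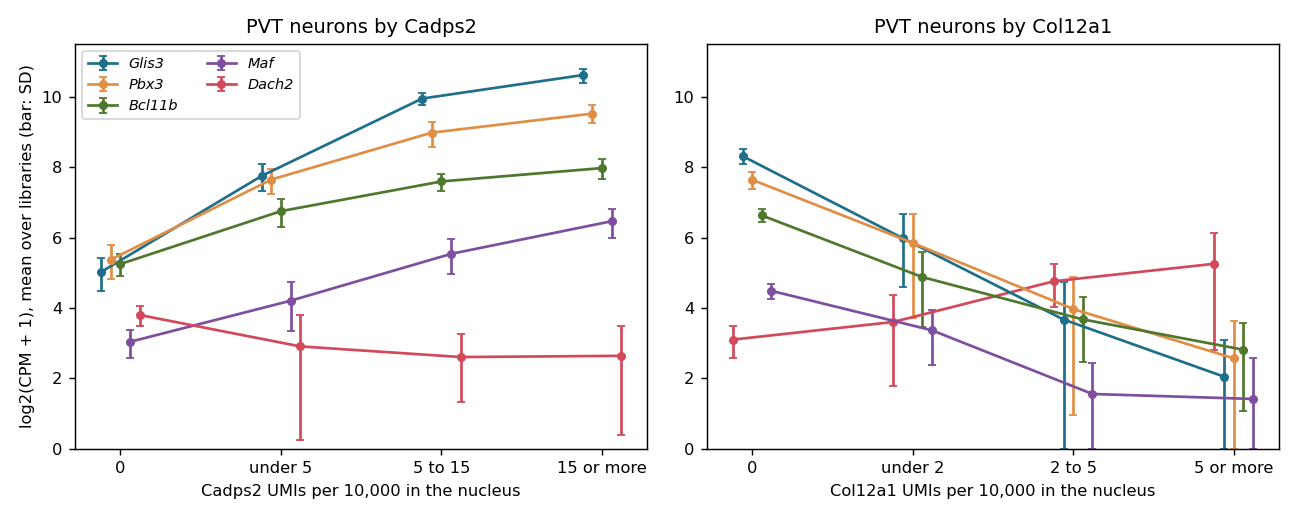
Mean level over libraries as log2(CPM + 1) (vertical axis, bars are the SD over libraries) of *C1ql3*-led neurons binned by their own *Cadps2* (left) or *Col12a1* (right) UMIs per 10000 (horizontal axis). *Glis3*, *Pbx3*, *Bcl11b* and *Maf* are higher with more *Cadps2* and lower with more *Col12a1*, and *Dach2* is the reverse.

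The intermediate *Glis3* and *Pbx3* levels of the *Drd3* group averaged nuclei with and without *Cadps2* UMIs, which differed in these genes. *Cadps2* is a marker of the split and the genes were chosen by their subtype levels, so this is a description without a test. In its 498 nuclei with 0 UMIs of *Cadps2*, *Glis3* was at 35.8 ± 20.4 CPM (n = 10), and in its 254 nuclei with 1 or more it was at 393 ± 198 CPM (n = 10). The lowest library of the latter, 191 CPM, was above the highest of the former, 74.0 CPM. *Pbx3* was at 22.8 ± 10.3 and 238 ± 112 CPM, and again did not overlap. *Bcl11b* differed less, at 48.9 ± 23.9 and 130.3 ± 39.4 CPM, and *Dach2* was at 6.15 and 6.12 CPM. In the *Npsr1* group only 2 libraries had 10 nuclei on both sides, and there *Glis3* was at 105 and 191 CPM without *Cadps2* and at 417 and 583 CPM with it. In these 2 libraries, *Npsr1*-led nuclei without *Cadps2* UMIs carried *Glis3* above the 28.9 CPM of the highest *Col12a1* library.

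*Pbx3*, *Bcl11b* and *Maf* were each found more often in *C1ql3*-led nuclei that held *Glis3*. Among *C1ql3*-led neurons thinned to 2000 UMIs, a *Pbx3* UMI was present in 48.2% ± 6.30 (n = 10) of nuclei with *Glis3* and in 10.1% ± 1.93 of nuclei without it, higher with it in 10 of 10 libraries. For *Bcl11b* these shares were 31.8% ± 6.27 and 8.95% ± 2.75 (10 of 10 libraries), and for *Maf* 9.00% ± 1.87 and 1.35% ± 0.69 (10 of 10). Within the *Cadps2* group alone, *Pbx3* was present in 60.7% ± 6.27 of nuclei with *Glis3* and 39.6% ± 8.89 without (9 of 10). *Bcl11b* and *Maf* did not go together there: *Maf* was present in 8.34% ± 6.40 (n = 8) of *Cadps2*-led nuclei with *Bcl11b* and 9.56% ± 3.36 of those without it, higher with it in 3 of 8 libraries. *Dach2* was present in 0.69% ± 0.79 of nuclei with *Pbx3* and 2.03% ± 0.80 of those without it, higher with it in 0 of 10 libraries. Nuclei of a library share depth and free RNA, and these shares carry no test.

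Outside the *C1ql3*-led neurons the 4 factors parted in habenula-like neurons. Habenula-like neurons had *Cadps2* at 1004 ± 195 CPM (n = 10), close to the 1069 ± 149.5 CPM of the PVT *Cadps2* group. *Pbx3* was high there as well, at 450.3 ± 102 CPM, and overlapped the PVT *Cadps2* group. *Glis3* was at 18.9 ± 28.2 CPM, *Bcl11b* at 24.9 ± 6.67 CPM and *Maf* at 2.74 ± 2.86 CPM. Over the *Adarb2* group as a whole all 6 genes were low. *Pbx3* was at 33.9 ± 10.6 CPM, *Glis3* at 31.0 ± 16.3 CPM, *Bcl11b* at 11.2 ± 4.18 CPM, and the other 3 genes at 2.76 to 4.65 CPM. The authors' cluster 3 holds 52.43% of this group and cluster 7 holds 19.88%. Over all their neurons, these clusters had *Glis3* at 10.7 ± 14.1 and 103 ± 39.05 CPM (n = 10).

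The *Gad2* group held unlike neurons. Its 177 nuclei in the authors' neuron cluster 5 carried the GABA markers *Gad1* at 85.0 ± 35.7 CPM (n = 7) and *Slc32a1* at 103 ± 58.7 CPM. Its 199 nuclei in other clusters had *Gad1* at 0.26 CPM and *Slc17a6*, the vesicular glutamate transporter, at 538 ± 154 CPM (n = 6). *Glis3* was at 8.70 ± 10.2 CPM in the former, from 0 to 28.3 CPM, and at 543 ± 297 CPM in the latter, from 61.1 to 997 CPM, with no overlap. *Zbtb16* was at 39.7 ± 27.5 CPM in the former and 1.19 ± 2.91 CPM in the latter. *Pbx3*, at 194 CPM in both, did not part them. *Bcl11b* was at 89.1 ± 92.2 CPM in the former and 105 ± 65.6 CPM in the latter. *Maf* was at 17.2 ± 10.5 and 28.5 ± 14.1 CPM, and for both genes the ranges overlapped. Taken as a sum, the latter nuclei thus carried *Glis3*, *Pbx3*, *Bcl11b* and *Maf*. They are a mixture too: clusters 1, 2 and 4 hold 13.56%, 11.44% and 15.16% of the *Gad2* group. These clusters differ in *Glis3*, so the levels are averages over unlike nuclei. *Cadps2* was at 604 ± 283 CPM in the nuclei of other clusters and 137 ± 59.0 CPM in those of cluster 5. *Gad2* itself was at 386 ± 74.4 CPM in the cluster 5 nuclei and 188 ± 27.9 CPM in those of other clusters. *Slc17a6* was at 189 ± 79.2 CPM in the cluster 5 nuclei, and *Slc32a1* at 1.81 ± 4.06 CPM in those of other clusters. The *Glis3* level of the whole *Gad2* group, 328 ± 189.7 CPM (n = 9), therefore mixes nuclei that all hold *Gad2* but differ in *Gad1* and *Slc32a1*.

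**Figure D3:**
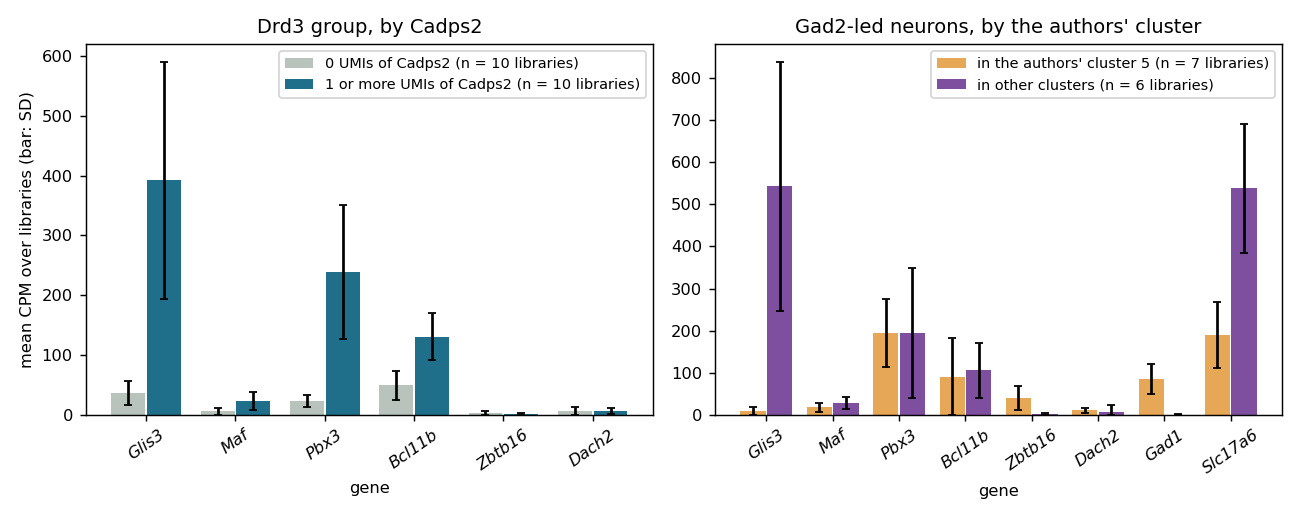
Mean CPM over libraries (vertical axis, bars are the SD) of each gene (horizontal axis) in the *Drd3* group split by *Cadps2* (left) and in *Gad2*-led neurons split by the authors' cluster (right). *Glis3* is at 35.8 and 393 CPM in the parts of the *Drd3* group and at 8.70 and 543 CPM in the parts of the *Gad2*-led neurons.

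Beside the neurons, all but *Bcl11b* reached in some type of glia or other cell, named by the authors' annotation, a level above or overlapping that of their highest PVT group. The share of all genes that do so was not computed, so this is not read as a trait of these genes. *Maf* was at 584 ± 164 CPM (n = 10) in microglia, from 292 through 594 to 856 CPM, all above the *Cadps2* group. Fibroblasts had *Maf* at 180.2 ± 73.1 CPM (n = 8) and OPCs at 44.5 ± 11.8 CPM (n = 9), which overlaps the *Cadps2* group. *Glis3* was at 711 ± 218 CPM (n = 9) in ependymal cells, 245 ± 88.5 CPM (n = 10) in astrocytes and 92.8 ± 30.9 CPM in microglia, but at 19.2 ± 21.5 CPM in oligodendrocytes. *Glis3* in OPCs ranged from 0 to 418 CPM, the latter in a library with 18 OPC nuclei.

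*Pbx3* was at 624 ± 230 CPM (n = 8) in fibroblasts, which overlaps the *Cadps2* group, 183 ± 49.8 CPM in microglia and 30.8 ± 9.90 CPM in astrocytes. *Bcl11b* was highest in neurons: its highest mean level outside neurons was 37.2 ± 17.5 CPM (n = 9) in OPCs, below every *Cadps2* library, and it was at 7.53 to 10.8 CPM in oligodendrocytes, astrocytes, endothelial cells, fibroblasts and microglia. *Zbtb16* was the reverse, at 224 ± 95.3 CPM (n = 8) in fibroblasts, 138 ± 94.0 CPM (n = 7) in endothelial cells, 104 ± 45.5 CPM (n = 10) in oligodendrocytes and 73.6 ± 27.3 CPM in astrocytes, and at 1.95 ± 3.73 CPM in microglia. The lowest astrocyte library, 35.5 CPM, lay above the highest library of any PVT group. *Dach2* was at 30.3 ± 13.4 CPM in oligodendrocytes, 29.6 ± 19.2 CPM in OPCs and 17.9 ± 7.40 CPM in ependymal cells, all overlapping the *Col12a1* group. With the 16 groups put in order of level for each gene, 1 of 90 pairs of neighbours did not overlap in range, *Maf* in microglia against fibroblasts. Neighbours in such an order are the groups closest in level, and the share over all genes was not computed. This count is therefore not read as a trait of these genes.

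**Figure D4:**
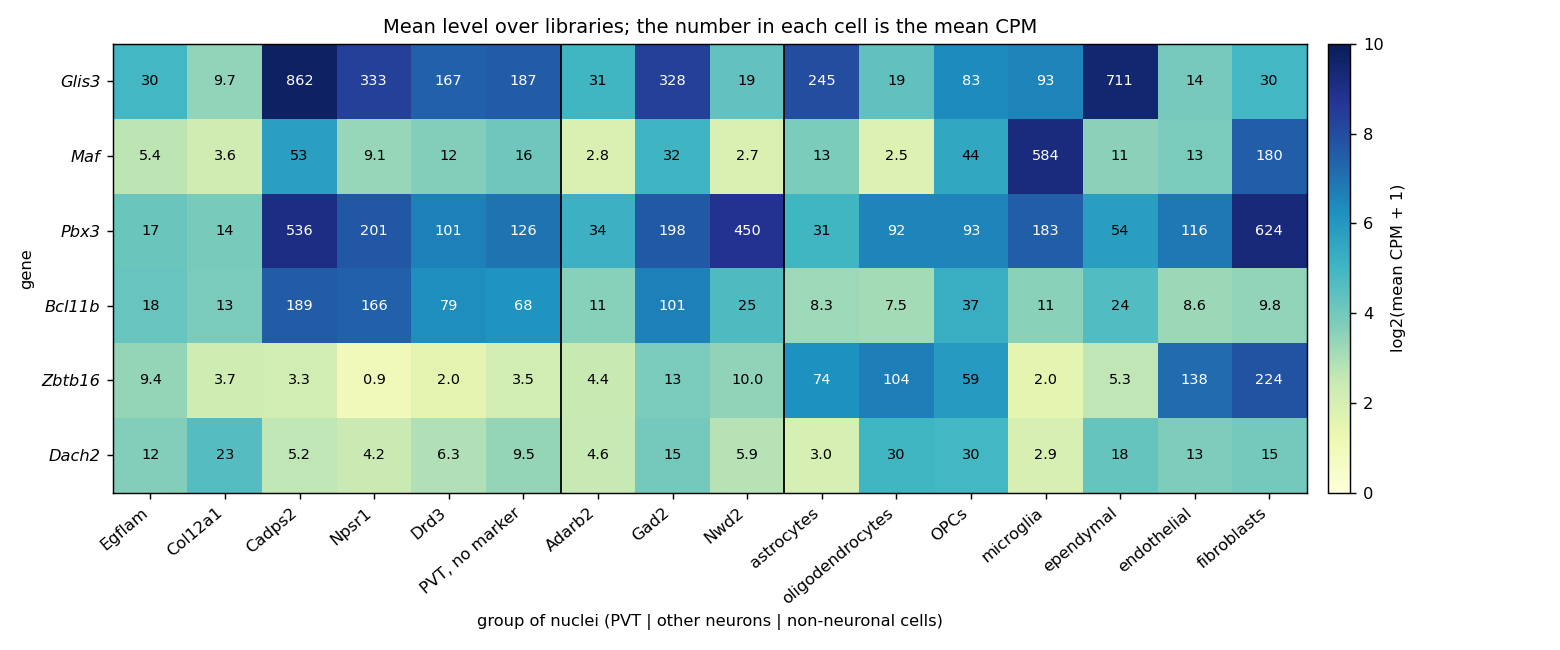
Mean CPM over libraries (number in each cell, colour as log2) of the 6 genes (vertical) in 16 groups of nuclei (horizontal), with lines between PVT neurons, other neurons and non-neuronal cells. *Bcl11b* is highest in the *Cadps2* and *Npsr1* groups, *Zbtb16* in fibroblasts, *Maf* in microglia and *Pbx3* in fibroblasts.

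The genes with the most similar pattern over 15 groups (5 PVT, 3 other neuron groups and 7 non-neuronal types) were found by Pearson correlation of mean log2(CPM + 1), as a description over groups that share libraries. For *Glis3* they were *Rfx3* (r = 0.88), *Gda* (0.86) and *Mroh5* (0.81). For *Pbx3* they were *C79798* (0.86), *Ddx24* (0.82) and *Scamp1* (0.76), and *C79798* overlaps *Pbx3* on the opposite strand. For *Bcl11b* they were *A230087F16Rik* (0.92), *Pip5k1bos* (0.92) and *Nxnl2* (0.91), for *Maf* *Cd74* (0.87), *Ppp1r3b* (0.87) and *Raet1e* (0.85), for *Zbtb16* *Shroom2* (0.93), *Rhoj* (0.91) and *Fermt2* (0.91), and for *Dach2* *Agpat4* (0.81), *Kif3a* (0.77) and *Phldb1* (0.77). Where a gene had to reach 10 CPM in some group, *Pip5k1bos*, *Nxnl2* and *Cd74* dropped out. *Ak5* (0.90) and *Gm19410* (0.89) then entered for *Bcl11b*, and *Olfml3* (0.85) for *Maf*. No member of the 6 was among the nearest 3 of another.

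The kind of library was not used in choosing the genes, so it was tested (edgeR quasi-likelihood test, Benjamini-Hochberg over all genes of a group). In *C1ql3*-led neurons *Glis3* was at 263 ± 14.7 normalized CPM in 4 male and 230.4 ± 53.5 in 6 female libraries, a log2 difference, female minus male, of -0.19 (SE 0.15, adjusted p = 0.472). *Pbx3* had a difference of 0.17 (SE 0.15, adjusted p = 0.55), *Maf* of -0.10 (SE 0.15, adjusted p = 0.751), *Bcl11b* of -0.11 (SE 0.15, adjusted p = 0.687) and *Zbtb16* of -0.33 (SE 0.29, adjusted p = 0.523). *Dach2* had the largest, at 8.63 ± 2.72 in male and 12.1 ± 1.59 in female libraries (0.46, SE 0.21, edgeR adjusted p = 0.22). Over 14 groups of nuclei in which a member could be tested, 0 of 45 tests by edgeR passed an adjusted p of 0.05. An unadjusted p under 0.05 came in 5: *Dach2* in *C1ql3*-led neurons, *Glis3* and *Pbx3* in astrocytes, and *Pbx3* in microglia and in the *Drd3* group. The share of all genes at that unadjusted level was not computed. The *C1ql3*-led neurons also include the PVT marker groups, so these tests overlap and nothing is read from the 5. DESeq2, run in *C1ql3*-led neurons, called 0 of 6 members.

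Among all genes the test called 5.67% in *C1ql3*-led neurons, 2.27% in the *Egflam*, 4.20% in the *Cadps2*, 2.67% in the *Npsr1* and 2.67% in the *Drd3* group. It called 2.80% in the *Adarb2* group, 1.34% in the *Gad2* group and 1.82% in habenula-like neurons. In glia and other cells it called 6.84% in astrocytes, 6.91% in oligodendrocytes, 2.10% in OPCs, 1.98% in microglia, 3.58% in ependymal cells and 0.215% in fibroblasts. Male replicate 2 stood apart: without it the calls in *C1ql3*-led neurons went from 704 to 2052 genes, with 0 members called either way. Its median mitochondrial percent in these neurons, 0.55%, was above the 0.05% to 0.17% of the other male libraries. The female libraries were at 0.55% to 0.96%, a range that holds male replicate 2 and lies above the other male libraries.

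No difference between the kinds of library in the folds of the 6 genes passed the test. For *Glis3* in the *Cadps2* group the log2 fold was 3.67 (SE 0.10) in male and 3.79 (SE 0.14) in female libraries, and the interaction was 0.16 (SE 0.24, adjusted p = 0.94, edgeR). For *Pbx3* the folds were 3.25 and 3.53 (interaction by edgeR 0.31, SE 0.21, adjusted p = 0.805), for *Maf* 3.28 and 2.75 (-0.45, SE 0.40, adjusted p = 0.874) and for *Bcl11b* 2.00 and 2.36 (0.38, SE 0.19, adjusted p = 0.751). Without the filter, *Dach2* in the *Col12a1* group had folds of 2.90 in male and 1.72 in female libraries (interaction by edgeR -1.11, SE 0.42, adjusted p = 0.82) and *Zbtb16* in the *Egflam* group 1.19 and 2.33 (1.58, SE 0.91, adjusted p = 1). Of all genes, 0% passed for the *Cadps2*, *Egflam* and *Col12a1* folds, and 479, 347 and 367 of 7205 genes had an unadjusted p under 0.05. The SEs of 0.19 to 0.91 leave room for differences of that size.

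Relatives and partners of the 6 factors did not enter the split, but their lists were drawn up with earlier results of these data known. The split markers also mark subtypes that the study found by clustering nuclei of these data, so these p-values are not independent support. Differences of the relatives between PVT groups were tested (edgeR quasi-likelihood test, adjusted p under 0.05 and a log2 fold over 0.5 either way). Of 63 listed genes, 33 passed the filter on low counts, and 10 of these were called in some group. The *Cadps2* group had 2 of 33 higher and 2 lower, against 4.86% and 5.29% of all genes. The *Egflam* group had 2 higher and 3 lower (2.72% and 2.94% of all genes) and the *Col12a1* group 2 higher and 3 lower (4.39% and 3.58%). The *Npsr1* group had 3 higher and 3 lower (3.33% and 3.29%), and the *Drd3* group 0 and 0 (0.555% and 0.527%). The median log2 fold of the 33 relatives was 0.06 in the *Cadps2* group, where that of all genes was 0.04. These are counts of 0 to 3 genes, and nothing is read from them about the list as a whole. There were 20 calls in all, and 2 after each nucleus was thinned to 2000 UMIs.

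*Glis1*, the paralogue of *Glis3*, ran opposite to it. It was at 90.7 ± 22.9 CPM (n = 10) in the *Col12a1* group and rose there by a log2 fold of 1.72 (SE 0.11, adjusted p = 9.85e-24), with 10 of 10 libraries exceeding the average of the remaining groups. In the *Cadps2* group it was at 14.2 ± 9.58 CPM, a log2 fold of -1.23 (SE 0.16, adjusted p = 5.17e-10), and 0 of 10 libraries exceeded that average. It was also lower in the *Npsr1* group (-1.33, SE 0.25, adjusted p = 3.19e-05, 1 of 8 libraries higher). Its call as higher in the *Egflam* group (0.53, SE 0.13, adjusted p = 0.00123) held in only 6 of 10 libraries, at 43.4 CPM where the remaining groups averaged 44.7 CPM. *Glis2* did not pass the fold threshold in any group, with 0.49 (SE 0.15) in the *Cadps2* group. *Zic4* was higher in the *Cadps2* group, at 142 ± 32.0 CPM (0.52, SE 0.07, adjusted p = 4.74e-10, 10 of 10 libraries). Of the 10 GLI, GLIS and ZIC genes listed, 6 were tested and these 2 were called.

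Among TALE genes 3 of 10 were tested and 2 were called, *Pknox2* and a gene that was lower in the *Npsr1* group. *Pknox2*, a partner-type TALE protein related to the MEIS group, was higher in the *Cadps2* group, at 70.6 ± 17.0 CPM (0.61, SE 0.10, adjusted p = 3.85e-07, 10 of 10 libraries), and lower in the *Egflam* group (-0.62, SE 0.12, adjusted p = 2.59e-05).

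In the BCL11 and BAF list (BAF is the chromatin remodelling complex that BCL11 proteins join) all 10 genes were tested and 3 were called. *Bcl11a* was higher in the *Npsr1* group, at 109 ± 57.1 CPM (1.24, SE 0.14, adjusted p = 5.43e-11, 6 of 8 libraries), and lower in the *Egflam* (-0.81, SE 0.12, adjusted p = 4.6e-08) and *Col12a1* groups (-0.82, SE 0.11, adjusted p = 3.75e-09). The groups low in *Bcl11a* are the groups lowest in *Bcl11b*. In the *Cadps2* group its log2 fold of 0.41 (SE 0.10) was under the threshold. *Smarca2*, an ATPase of the complex, was lower in the *Cadps2* group (-0.55, SE 0.07, adjusted p = 6.47e-11, 0 of 10 libraries higher), and *Dpf1*, a neuronal subunit, was lower in the *Col12a1* group (-0.52, SE 0.14, adjusted p = 0.00371).

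Among BTB zinc fingers and co-repressors 8 of 10 were tested and 2 were called. *Zbtb7c* was higher in the *Egflam* group (0.68, SE 0.09, adjusted p = 1.19e-09, 9 of 10 libraries) and the *Col12a1* group (0.54, SE 0.08, adjusted p = 1.63e-07, 8 of 10 libraries) and lower in the *Npsr1* group (-0.94, SE 0.16, adjusted p = 4.73e-06). *Bcl6*, a BTB repressor, was higher in the *Npsr1* group, at 36.0 ± 20.3 CPM (0.84, SE 0.22, adjusted p = 0.00385), and lower in the *Col12a1* group (-0.64, SE 0.15, adjusted p = 0.000561). *Zbtb20* was at 486 to 634 CPM in the 5 groups and passed the threshold in none. Of the list of DACH, EYA and related genes 3 of 13 were tested, and *Skil*, a co-repressor of the SKI family to which DACH proteins are related, was higher in the *Npsr1* group (0.71, SE 0.21, adjusted p = 0.0125) and lower in the *Egflam* group (-0.51, SE 0.15, adjusted p = 0.0103). *Dach1* was at 2.51 to 11.3 CPM and was not tested. Of the 10 MAF partners 3 were tested and 0 were called.

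**Figure D5:**
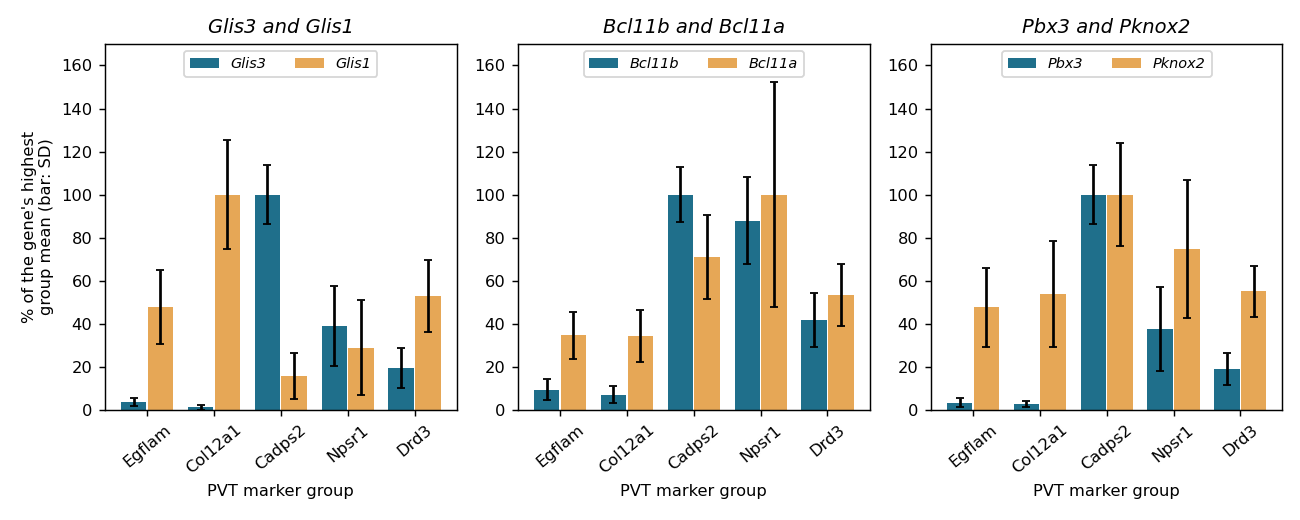
Level of a member (blue) and a relative (orange) in the 5 PVT marker groups (horizontal axis), as a percent of the gene's own highest group mean (vertical axis, bars are the SD over libraries). *Glis1* is highest in the *Col12a1* group where *Glis3* is lowest. *Bcl11a* was called higher only in the *Npsr1* group, where *Bcl11b* is also high. *Pknox2* was called higher only in the *Cadps2* group, where *Pbx3* is highest.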

How the data were processed

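Nuclei of 10 libraries were counted by 10x Genomics Chromium 3' sequencing. The submitters' processing notes name mm10 and Cell Ranger 6.1.1, while the methods name another Cell Ranger version. The authors kept nuclei having 200 genes or more and at most 5% mitochondrial transcripts, and dropped clusters judged to be doublets or of low quality. The deposited matrix holds raw UMI counts per gene and nucleus. Its sums equalled the deposited UMI totals in all 20503 nuclei. The deposited metadata give the percent of mitochondrial UMIs, the cluster name and the sex of each nucleus, and the sample titles name only the female libraries as such. No further doublet caller was run.

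The 6 genes, the markers and the lists of relatives were chosen with earlier results of these data known. Named genes are the 6 members in every group, for each family the up to 3 called relatives with the largest fold and the closest paralogue of each member, and for each member its 3 most similar genes. Some of these are not reported here. Each marker's UMIs per 10000 were divided by their 99th percentile among the nuclei compared. The number of UMIs asked of a leading marker was planned as 2 and set to 1 after the numbers of nuclei and the levels had been seen, since 2 left the *Npsr1* group in few libraries. The setting of 2 is reported as an alternative. Levels and fits used 17513 genes with at least 20 UMIs in each kind of library. Sums per library entered quasi-likelihood fits (glmQLFit and glmQLFTest of edgeR 4.0.16 under R 4.3.3) after TMM scaling and filterByExpr, with Benjamini-Hochberg adjustment. Each SE is the log2 fold over the root of its F value. The fits were tested on simulated data. DESeq2 1.42.0, other scalings, no filter, thinning, other markers and leaving out each library were alternatives. Python 3.11.15, NumPy 2.4.6 and SciPy 1.17.1 were used, and gene positions came from GENCODE for GRCm38. Nothing says whether the libraries of a kind came from separate batches, so p-values measure the spread between these libraries, which may be technical. A library with 0 UMIs of a gene allows up to 3 by counting error alone. The kind of library was tested in each group with at least 10 nuclei in 2 libraries of each kind.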

Additional observations from a re-analysis of the deposited data

Results flagged for a closer look

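Within the 5 PVT marker groups, 52 sets of 4 to 6 libraries of a kind were checked for a library far from the others, and 3 stood out by Dixon's test at the 95% level. Chance flags about 1 in 20 sets. All 3 are the same sum, the *Col12a1* group of female replicate 3, with 41 nuclei. *Glis3* was at 28.9 CPM there on 9 UMIs, against 0 to 9.95 CPM in the other female libraries. *Maf* was at 9.62 CPM on 3 UMIs, against 0 to 3.30 CPM, and *Pbx3* was at 0 CPM on 0 UMIs, which by counting allows up to 9.62 CPM, against 12.8 to 19.9 CPM. Without female replicate 3 the leading group of all 6 genes was that given above.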

How the results depend on the processing

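The group with the highest mean was that given above for 6 of 6 genes with 2 or 3 UMIs asked of the leading marker, in neurons over 2000 genes, in male or female libraries alone and without each library in turn. It was so for 5 of 6 with no lead over the next marker and after thinning, where *Bcl11b* was highest in the *Npsr1* group, and for 5 of 6 with no *C1ql3* needed or with another marker for each subtype, where *Zbtb16* was highest in the *Cadps2* or *Drd3* group. With 3 UMIs asked of the leading marker, the *Egflam* and *Npsr1* groups were left with male replicates 3 and 4 only. With 2 UMIs the same held for the *Npsr1* group. The 6 of 6 at these settings therefore includes no female library of those groups. The folds of *Glis3*, *Pbx3*, *Bcl11b* and *Maf* in the *Cadps2* group kept their sign under the alternatives fitted (21 for *Maf*, 22 for the others). Those of *Dach2* and *Zbtb16*, given without the filter on low counts, had 4 and 0 further alternatives. The unfiltered *Zbtb16* fold in the *Egflam* group was positive in male (1.19) and in female libraries (2.33), and its sign was otherwise not checked. Over these alternatives the log2 fold of *Glis3* in the *Cadps2* group lay between 3.11 and 4.16, of *Pbx3* between 2.72 and 3.68, of *Bcl11b* between 1.88 and 2.43 and of *Maf* between 2.24 (another marker for each subtype) and 4.04 (3 UMIs).

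The 20 calls of relatives became 2 after thinning to 2000 UMIs, which keeps fewer counts. Calls over all genes went from 2268 to 892 with the same thinning. The calls of relatives were 13 in female libraries alone and lay between 16 and 22 without each library. The other alternatives gave 15 to 27, with 20 by DESeq2. The 704 genes called between female and male libraries in *C1ql3*-led neurons became 465 after thinning and 2002 when genes counted in a single kind of library were let in. Leaving out a library gave 473 to 2052, the highest without male replicate 2. With the replicate number as a block the count was 297. The numbers do not pair the libraries (correlations of same-numbered deviations from -0.10 to 0.05). Members called were 0 in every one of these fits. The difference of *Bcl11b* between the kinds, -0.11, turned to 0.020 with the block and to 0.076 after thinning, and passed the test in none of these. Interactions of the members stayed at 0 called with RLE scaling, without the filter (added after the data were seen) and without each library, and were not run with 2 UMIs asked of the leading marker.

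Depth limits *Zbtb16* and *Dach2*, which rest on 7 to 311 UMIs per PVT marker group and did not pass the filter on low counts there.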
